A study of Mus musculus with 31 samples.

Results

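Immediate early genes are the genes that neurons transcribe first after a stimulus, from factors already present in the cell, before any new protein is made. Calcium entry and kinase cascades act on the transcription factors CREB and SRF, and the resulting RNAs appear quickly and are short-lived. In the hypothalamus, the brain region that controls feeding, body temperature and hormone release, Fos in particular is widely used as a marker of recently active neurons. The 10 genes described here, of 54532 in the deposited table, were chosen by name: Fos, Fosb, Junb, Egr1, Egr2, Arc, Npas4, Nr4a1, Ier2 and Dusp1. Each was matched by its Ensembl gene ID in the GRCm38 release 94 annotation, and all 10 passed the filter on low counts.

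The RNA was labelled as coming from the hypothalamus of C57BL/6J mice, an inbred strain, at 4 months of age. Dams had eaten an obesogenic (high-fat-high-sugar) or a control diet through pregnancy and lactation. Their pups were moved to standard chow at postnatal day 21. From 3 months every animal, whatever its dam had eaten, received the obesogenic diet itself, for 4 weeks. The libraries were 7 from daughters and 8 from sons of obesogenic dams, and 8 from daughters and 8 from sons of control dams. They are called obesogenic or control females and males after the diet of the dam. The labels tie no library to an animal, litter, time of day or handling before death, so p-values measure the spread between these libraries only, and those factors cannot be told apart from the groups.

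Library totals ran from 23118626 to 38547288 read pairs, and 18743 genes were tested. Levels are CPM, read pairs scaled to library size with TMM factors, and 1 read pair was worth 0.0259 to 0.0433 CPM before TMM scaling. The genes of the X and Y chromosomes went against the sex label in 2 libraries, control female 7 and control male 7. Control female 5, control male 6 and obesogenic female 3 stood apart from the rest, with a median correlation to the other libraries of 0.910 to 0.936, against 0.967 to 0.979 in the other 28. These 5 are called the libraries in doubt. Contrasts and correlations are also given without them where stated, while the members' levels by group use all 31 libraries unless stated otherwise. The labelled tissue was checked against 19 hypothalamic neuron genes: their summed level was 1317 to 4223 CPM in every library but control female 5, where it was 289 CPM. In control female 5, 15 of the 19 lay below the lowest of the other 30 libraries, such as the neuropeptide genes Pmch at 0.0270 CPM and Hcrt at 0.108 CPM. The neuropeptide genes Npy at 116 CPM and Crh at 13.9 CPM lay above the highest of the others there, and Trh at 139.6 CPM lay within their range. The olfactory bulb gene Cdhr1 had 740 CPM in that library, against a highest of 9.06 CPM elsewhere.

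Promoter sequences of the members were examined for the sites through which CREB and SRF are known to act. Whether such sites have a part in the covariation of the members was not tested. RefSeq windows on GRCm38.p6, from 250 bases before to 50 after the gene start, were found for 7 of the 10 members. They were searched on both strands for the cyclic AMP response element TGACGTCA, for its half-site TGACG or CGTCA, and for the CArG box bound by SRF. The half-site letters lay in 7 of 7 windows, against 20.8% of 32851 windows in the table. The members were chosen by name as known early response genes, so this count is not an independent finding about them. The half-site contains CG, and the background windows were not matched for base composition. The full element lay in 1 of 7, that of Dusp1, against 1.79% of all windows, and the CArG box in 1 of 7, that of Egr2, against 1.63%. A full element contains the half-site on both strands and so counts under each motif. These matches describe letters and are not evidence of binding. Egr1, Arc and Ier2 had no window, and bases further than 250 before the start were not searched. The lack of a match therefore does not show that a member lacks such a site.

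The windows shown are those of the most used activity marker (Fos), of the members with the full element (Dusp1), the CArG box (Egr2) and the most half-sites (Nr4a1), and of the neuron-specific member (Npas4). They lie at chr12:85473640-85473939 (plus strand), chr17:26508423-26508722 (minus), chr10:67537619-67537918 (plus), chr15:101266596-101266895 (plus) and chr19:4989922-4990221 (minus). The table gave 5 windows for Egr2, of which the one at its principal transcript is printed. The RefSeq start used for Egr2 lies 2394 bases inside the Ensembl gene, and that of Nr4a1, the only one in the table, lies 12577 bases inside it, so these windows are not at the upstream end of the gene coordinates given below. Each reads 5′ to 3′ in the direction of the gene, with half-sites, full elements and the CArG box in capitals.
Fos: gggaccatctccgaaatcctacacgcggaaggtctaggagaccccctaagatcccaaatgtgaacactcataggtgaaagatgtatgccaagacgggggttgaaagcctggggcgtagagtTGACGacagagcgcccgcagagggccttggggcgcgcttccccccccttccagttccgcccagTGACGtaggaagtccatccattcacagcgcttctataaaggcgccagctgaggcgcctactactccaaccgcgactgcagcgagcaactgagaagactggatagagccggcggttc
Dusp1: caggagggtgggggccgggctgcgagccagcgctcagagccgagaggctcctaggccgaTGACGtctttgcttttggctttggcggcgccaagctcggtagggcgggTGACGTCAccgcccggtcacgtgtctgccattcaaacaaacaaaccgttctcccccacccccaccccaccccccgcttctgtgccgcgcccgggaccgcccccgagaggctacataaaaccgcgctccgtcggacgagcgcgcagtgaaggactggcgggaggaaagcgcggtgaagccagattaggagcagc
Egr2: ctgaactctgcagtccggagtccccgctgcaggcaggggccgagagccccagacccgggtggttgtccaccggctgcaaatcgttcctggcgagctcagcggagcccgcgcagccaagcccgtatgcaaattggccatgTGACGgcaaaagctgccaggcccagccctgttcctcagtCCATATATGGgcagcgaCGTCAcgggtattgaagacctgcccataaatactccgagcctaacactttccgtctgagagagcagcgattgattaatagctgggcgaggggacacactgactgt
Nr4a1: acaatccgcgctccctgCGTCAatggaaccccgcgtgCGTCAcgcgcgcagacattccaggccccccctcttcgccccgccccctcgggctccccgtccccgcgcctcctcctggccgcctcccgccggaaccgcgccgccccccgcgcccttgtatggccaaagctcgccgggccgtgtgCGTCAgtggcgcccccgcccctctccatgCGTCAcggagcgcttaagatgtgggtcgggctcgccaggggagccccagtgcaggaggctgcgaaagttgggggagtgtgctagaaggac
Npas4: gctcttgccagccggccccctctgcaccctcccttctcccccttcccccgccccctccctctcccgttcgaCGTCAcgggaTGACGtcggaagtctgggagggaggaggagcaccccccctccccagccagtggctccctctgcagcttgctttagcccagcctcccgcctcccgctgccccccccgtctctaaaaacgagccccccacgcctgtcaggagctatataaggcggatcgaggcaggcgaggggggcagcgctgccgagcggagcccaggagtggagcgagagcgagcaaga

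Compared with each other per kilobase of exon, the members formed an order with overlapping steps at the top and separate ones at the bottom. Across the 31 libraries Arc, Dusp1 and Egr1 had medians of 4.31, 4.31 and 4.18 CPM per kilobase, and their interquartile ranges overlapped. Nr4a1, Junb and Fos followed at 3.18, 3.13 and 2.81 CPM per kilobase, and their interquartile ranges overlapped with one another and with those of the first 3, although Egr1 lay above Nr4a1 in 27 of 31 libraries. Ier2 lay at 1.59, and Fos was above it in 26 of 31 libraries. Below them, Npas4 had a median of 0.878 CPM per kilobase, Fosb of 0.360 and Egr2 of 0.0724. The order of these last members held library by library: Npas4 lay above Fosb, and Fosb above Egr2, in 31 of 31 libraries. Egr2 had 0 read pairs in 3 libraries (obesogenic female 3, obesogenic male 4 and control male 6). There a count of 0 allows up to 0.122, 0.104 and 0.109 CPM before TMM scaling, which covers counting error only. Obesogenic female 3 and control male 6 also had reads in the fewest genes, 18513 and 18734, against at least 21311 in every other library. In bulk RNA, fewer responding cells and less RNA per cell cannot be told apart.

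The members differed far more between libraries than between groups. The coefficient of variation over the 31 libraries, on the CPM scale, was 118% for Egr2, 103% for Fos, 65.6% for Egr1 and 25.9% for Dusp1. The spread without single libraries was not computed, but 3 libraries were most often at the top. Obesogenic female 5 and obesogenic male 1 were each among the 3 highest of all libraries for 8 of the 10 members. Control female 5 was among them for 9. No other library was among the 3 highest for more than 1 member. Against the median of the other libraries of its own group, the median fold over the 10 members was 2.45 in obesogenic female 5, 3.40 in obesogenic male 1 and 3.36 in control female 5.

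**Figure D1:**
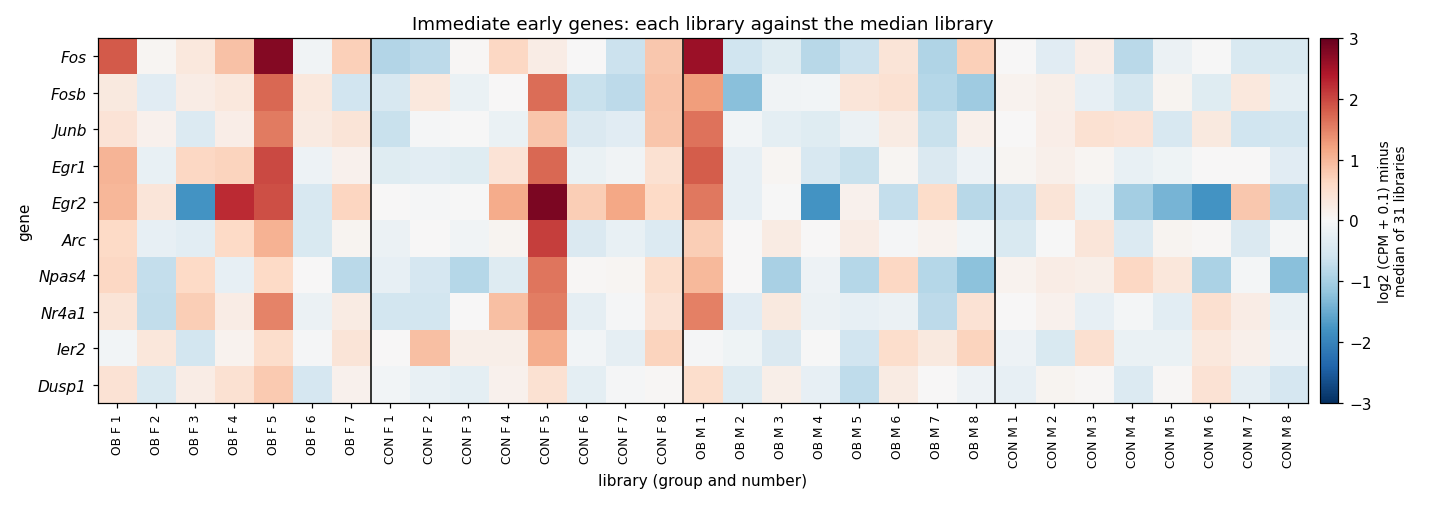
Each member's level in each library, as log2 (CPM + 0.1) minus that gene's median over the 31 libraries, with libraries in columns by group and members in rows. OB and CON give the diet of the dam, F and M the sex. The columns of obesogenic female 5, control female 5 and obesogenic male 1 are red for nearly every member, and the 8 control male columns stay paler except for Egr2 and Npas4.

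The 3 libraries did not share a profile. In obesogenic female 5 and obesogenic male 1 the member furthest above its own group's other libraries was Fos, at 4.72 and 9.14 times their median. In control female 5 Fos was at 7.69 CPM, 1.15 times that median and rank 11 of the 31 libraries. There Egr2 and Arc led instead, at 5.51 and 4.82 times the median of the other control females. Npas4, whose RNA is restricted to neurons, was at 8.91 CPM in control female 5, 5.74 CPM in obesogenic male 1 and 4.41 CPM in obesogenic female 5. Ier2 moved least in the libraries with high Fos, at 1.42 times the median in obesogenic female 5 and 0.972 times in obesogenic male 1.

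Other gene lists also differed in these libraries, and their part in the member levels was not tested. In control female 5 the summed neuron markers were 9403 CPM, the highest of all 31 libraries, and so were the olfactory bulb list at 2650 CPM, the thalamus list at 2008 CPM and the telencephalon list at 985 CPM. Of the 19 hypothalamic neuron genes 6 were at 0 reads there, of which 5, among them Agrp and Nkx2-1, were above 0 in all other libraries and the other, Kiss1, was at 0 in every library. By group the hypothalamic neuron list ran from 1607 to 2348 CPM in obesogenic females and from 289 to 2038 in control females, and from 1317 to 2026 CPM in obesogenic males and from 1451 to 4223 in control males. In obesogenic female 5 and obesogenic male 1 the neuron markers were 5393 and 5341 CPM, ranks 5 and 6 of 31. Heat shock genes ranked 2 and 3 of 31 in obesogenic female 5 and obesogenic male 1, at 4160 and 4048 CPM, and genes induced by glucocorticoids ranked 30 and 24, at 683 and 802 CPM. Hypothalamic neuron genes in obesogenic male 1 ranked 30 of 31, at 1317 CPM. Its title, like that of obesogenic female 1, carries 2 numbers, whose meaning the labels do not explain.

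**Figure D2:**
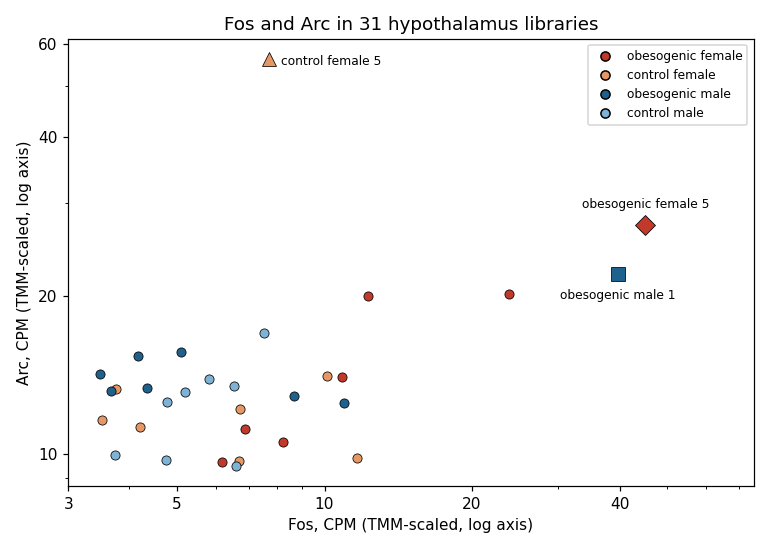
Fos (horizontal, CPM) against Arc (vertical, CPM) in 31 libraries, both on log axes, coloured by group. Obesogenic female 5 and obesogenic male 1 lie far right, at 45.1 and 39.6 CPM of Fos, and control female 5 lies at the top with 56.2 CPM of Arc and 7.69 CPM of Fos.

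Fos, Fosb and Junb encode subunits of AP-1, the dimeric transcription factor that turns on later activity genes. Fos (ENSMUSG00000021250, chromosome 12, 85473890 to 85477273, plus strand) ran from 6.17 to 45.1 CPM with a median of 10.8 in obesogenic females, and from 3.52 to 11.6 CPM with a median of 6.71 in control females. In males it ran from 3.49 to 39.6 CPM with a median of 4.71 in obesogenic and from 3.73 to 7.54 CPM with a median of 5.50 in control animals. In females 3 of 7 obesogenic libraries (45.1, 23.8 and 12.3 CPM) lay above all 8 control libraries and the rest overlapped, whereas the male medians ran the other way from the male means. The means were 16.2 ± 14.1 CPM in obesogenic females (SD, n = 7) and 6.79 ± 2.98 CPM in control females (SD, n = 8), and 9.996 ± 12.3 CPM in obesogenic males against 5.62 ± 1.24 CPM in control males (SD, n = 8 each).

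Fosb (ENSMUSG00000003545, chromosome 7, 19302696 to 19310051, minus strand), whose product accumulates under repeated stimulation, had medians of 2.79 CPM in obesogenic females (range 1.49 to 7.64) and 2.09 CPM in control females (range 1.27 to 7.40). It had medians of 2.10 CPM in obesogenic males (range 0.882 to 5.50) and 2.13 CPM in control males (range 1.54 to 2.80). Junb (ENSMUSG00000052837, chromosome 8, 84974484 to 84978718, minus strand), a partner of the FOS proteins, had medians of 8.64 CPM in obesogenic females (range 5.36 to 21.5) and 6.63 CPM in control females (range 4.50 to 12.99). In males its medians were 6.56 CPM in obesogenic animals (range 4.53 to 22.6) and 7.72 CPM in control animals (range 4.69 to 9.90). For both genes the groups overlapped in each sex, and in obesogenic animals the highest value was that of female 5 or male 1.

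Egr1 and Egr2 encode zinc finger transcription factors of the early growth response family. Egr1 (ENSMUSG00000038418) ran from 16.1 to 74.3 CPM with a median of 28.96 in obesogenic females, and from 14.6 to 62.4 CPM with a median of 16.9 in control females. In obesogenic males it ran from 11.8 to 65.8 CPM with a median of 16.4, and in control males from 14.7 to 20.9 CPM with a median of 18.8. Of the obesogenic females 6 of 7 lay above the control female median and 4 of 7 above the control female mean, and the lowest obesogenic value lay inside the control range. Egr2 (ENSMUSG00000037868, chromosome 10, 67535475 to 67542188, plus strand) was the least abundant member, at 0.611 ± 0.562 CPM in obesogenic females (SD, n = 7) and 0.664 ± 0.703 CPM in control females (SD, n = 8). It averaged 0.283 ± 0.292 CPM in obesogenic males and 0.171 ± 0.174 CPM in control males (SD, n = 8 each), and its coefficient of variation was 92.0 to 106% in the 4 groups. Without the libraries in doubt the order of the female means turned, to 0.713 ± 0.541 CPM in obesogenic and 0.381 ± 0.168 CPM in control females (SD, n = 6 each).

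Npas4 and Nr4a1 are transcription factors of other families: NPAS4 is a neuronal factor induced by calcium entry, and NR4A1 is an orphan nuclear receptor. Npas4 (ENSMUSG00000045903, chromosome 19, 4984355 to 4989971, minus strand) had medians of 2.89 CPM in obesogenic females (range 1.61 to 4.45) and 2.67 CPM in control females (range 1.54 to 8.91). It had medians of 2.05 CPM in obesogenic males (range 1.17 to 5.74) and 3.18 CPM in control males (range 1.15 to 4.50). Nr4a1 (ENSMUSG00000023034, chromosome 15, 101254269 to 101274795, plus strand) had medians of 13.3 CPM in obesogenic females (range 6.64 to 31.3) and 11.04 CPM in control females (range 7.53 to 32.7). Its medians were 9.87 CPM in obesogenic males (range 6.48 to 31.9) and 10.97 CPM in control males (range 8.95 to 15.6). Each range contained the medians of the other groups for both genes.

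Arc, Ier2 and Dusp1 act outside this circle of DNA-binding factors. Arc (ENSMUSG00000022602, chromosome 15, 74669083 to 74672570, minus strand) encodes a synaptic protein that drives removal of AMPA receptors from synapses. Its medians were 14.01 CPM in obesogenic females (range 9.66 to 27.2) and 11.9 CPM in control females (range 9.72 to 56.2). In males they were 13.8 CPM in obesogenic (range 12.5 to 21.96) and 12.8 CPM in control animals (range 9.52 to 17.01). Of the obesogenic males 8 of 8 lay above the control male mean of 12.4 CPM and 7 of 8 above the control male median. Without the libraries in doubt the control male mean was 12.69 CPM, above obesogenic male 8 at 12.52 CPM. Dusp1 (ENSMUSG00000024190, chromosome 17, 26505590 to 26508519, minus strand), a phosphatase that shuts off MAP kinases, averaged 13.5 ± 4.23 CPM in obesogenic females (SD, n = 7) and 11.5 ± 2.15 CPM in control females (SD, n = 8). It averaged 11.4 ± 3.17 CPM in obesogenic males and 11.04 ± 2.48 CPM in control males (SD, n = 8 each). Ier2 (ENSMUSG00000053560, chromosome 8, 84661331 to 84662852, minus strand), an immediate early nuclear protein, averaged 2.68 ± 0.656 CPM in obesogenic females and 3.25 ± 1.20 CPM in control females (SD, n = 7 and 8). In obesogenic males it averaged 2.61 ± 0.821 CPM and in control males 2.43 ± 0.575 CPM (SD, n = 8 each).

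**Figure D3:**
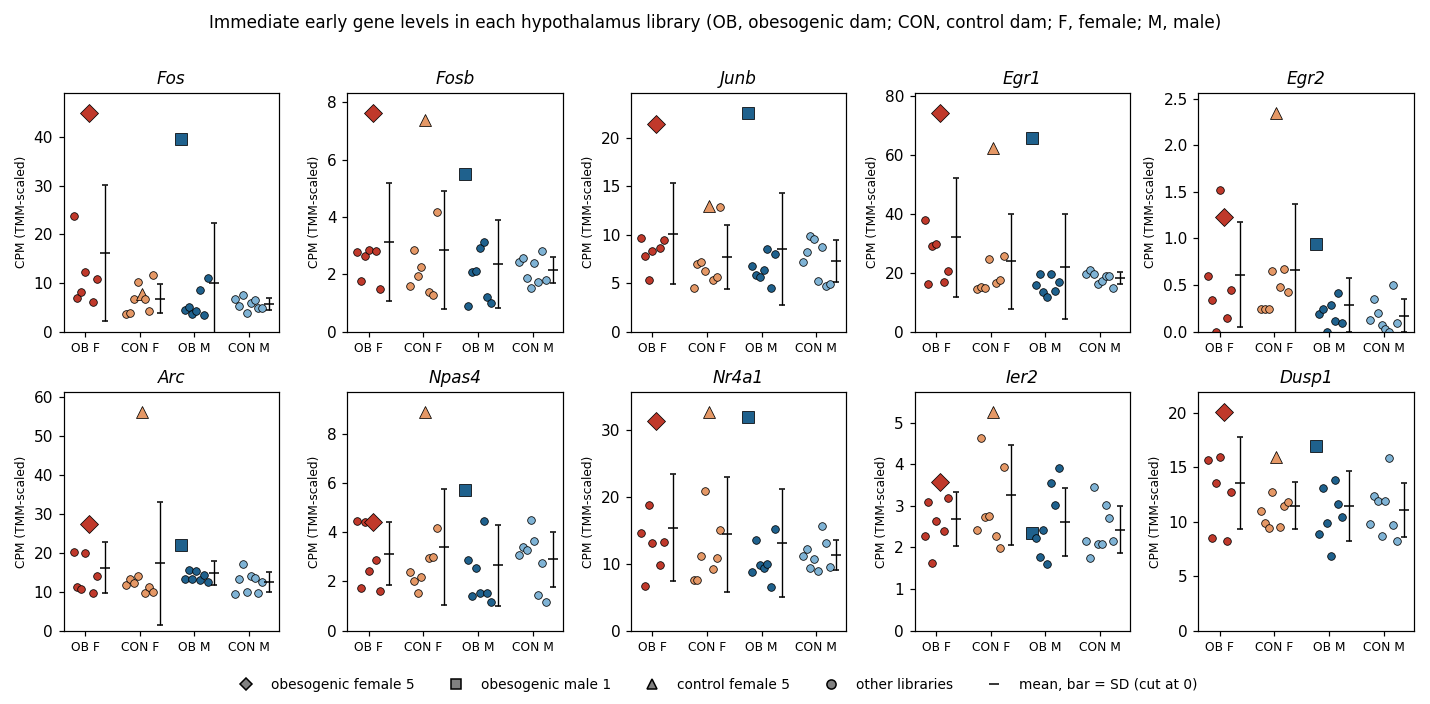
Level of each member in each library (CPM, TMM-scaled, axes from 0), by group, with the mean and SD (bars cut at 0) to the right of the points. Diamonds mark obesogenic female 5, squares obesogenic male 1 and triangles control female 5. Apart from these 3 libraries the groups overlap in every panel, and the 8 control males form the tightest group for Fos, Fosb and Egr1.

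The first comparison asked whether the diet of the dam changed the members in daughters. Of the 10 members 0 passed an adjusted p of 0.05 in edgeR's quasi-likelihood test, and the background was 0% of genes called among 18743. DESeq2 and limma voom also called 0 of 10 members, in this and the other contrasts. At an unadjusted p under 0.05, 1 of 10 members passed, against a background of 8.12% of all genes. That member was Fos, with a log2 fold change of 1.25 ± 0.47 (SE; 95% interval 0.29 to 2.21), a raw p of 0.0123 and an adjusted p of 0.549 in edgeR. It lay above the control mean in 6 of 7 obesogenic females. In CPM the 2 groups overlapped for 10 of 10 members, as they did for all but 0.117% of genes. For the other members the log2 fold changes were 0.42 for Egr1, 0.39 for Junb, 0.24 for Dusp1, 0.13 for Fosb and 0.09 for Nr4a1, and -0.10 for Arc, -0.12 for Npas4, -0.12 for Egr2 and -0.28 for Ier2. Thus 6 of 10 members lay above 0, against a background of 47.5% of all genes, with a median log2 fold change of 0.11 over the members and -0.01 over all genes. In the same contrast 12 of 12 olfactory bulb genes lay below 0 (median -0.69), 9 of 10 microglial genes lay below 0 (median -0.17) and 14 of 18 hypothalamic neuron genes lay above 0 (median 0.14), and their part in the members' values was not tested. The 95% intervals were wide: that of Egr1 ran from -0.31 to 1.16 and that of Arc from -0.70 to 0.50.

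Single libraries set most of these values. Without obesogenic female 5 the log2 fold change of Fos was 0.74 (95% interval -0.16 to 1.65) and 4 of 10 members lay above 0, with a median of -0.21. Without control female 5, the library with olfactory bulb markers, 9 of 10 lay above 0 with a median of 0.49. Then Arc was at 0.46, Egr1 at 0.81 and Fos at 1.29, each with an unadjusted p under 0.05, a background of 6.86% of genes in that fit, and an adjusted p of 0.701 in edgeR, and Egr2 and Npas4 were at 0.53 and 0.27. Without the 5 libraries in doubt 9 of 10 members again lay above 0, with a median of 0.49. In that setting Fos was at 1.30 (95% interval 0.09 to 2.52) and Arc at 0.53 (95% interval 0.14 to 0.92), with adjusted p-values of 0.564 and 0.543 in edgeR. Of the single libraries left out, control female 5 was the only one that turned the direction of Arc and Npas4 in females. That of Egr2 also turned without obesogenic female 3, to 0.08, and without obesogenic female 6, to 0.04. With any of these sets of libraries no member passed the adjusted threshold.

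In sons the same question gave 0 of 10 members past an adjusted p of 0.05 in edgeR, against a background of 0% of genes, and 0 of 10 at an unadjusted p under 0.05, against 3.45% of all genes. The log2 fold change of Fos was 0.83 ± 0.46 (SE; 95% interval -0.10 to 1.77), with a raw p of 0.0797 and an adjusted p of 0.940 in edgeR, and 3 of 8 obesogenic males lay above the control mean. The groups overlapped in CPM for 10 of 10 members, and 0.016% of all genes had groups that did not. The others lay between -0.13 for Npas4 and 0.70 for Egr2, with Egr1 at 0.28 and Arc at 0.26. In all, 9 of 10 members lay above 0, against a background of 50.1% of all genes, with a median of 0.22. In the same contrast 17 of 18 hypothalamic neuron genes lay below 0 (median -0.24) and 9 of 10 general neuron genes lay above 0 (median 0.09), and their part in the members' values was not tested. Obesogenic male 1 carried this direction. Without it Fos was at 0.03 (95% interval -0.69 to 0.76), Egr1 at -0.20 and Junb at -0.17, and 4 of 10 members lay above 0 with a median of -0.09. Leaving out both libraries whose titles carry 2 numbers, an alternative chosen after seeing the data, likewise left 4 of 10 above 0 and a median of -0.08.

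**Figure D4:**
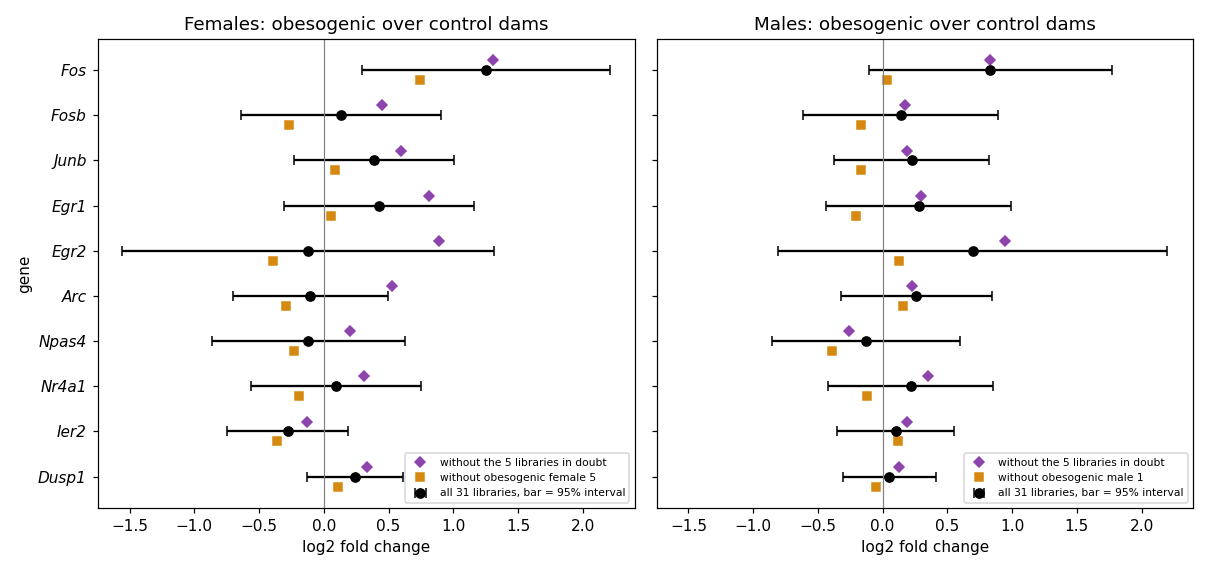
Log2 fold change of each member, obesogenic over control dams, in females (left) and males (right). Black circles with 95% intervals use 31 libraries, purple diamonds leave out the 5 libraries in doubt, and orange squares leave out obesogenic female 5 (left) or obesogenic male 1 (right). The interval of Fos in females is the only one that lies wholly above 0, and the squares for Fos fall to 0.74 in females and 0.03 in males.

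Whether the diet contrast differed between the sexes was tested as the difference of the 2 log2 fold changes, females minus males. None of the 10 members passed in edgeR, where the background was 0% of genes, and at an unadjusted p under 0.05 it was 0 of 10 members against 3.62% of all genes. The difference was 0.42 for Fos (95% interval -0.91 to 1.75), -0.36 for Arc (-1.20 to 0.47) and -0.82 for Egr2 (-2.89 to 1.25), and 5 of 10 members lay above 0, against a background of 51% of genes. Here 12 of 12 olfactory bulb genes lay below 0 (median -0.79) and 17 of 18 hypothalamic neuron genes above 0 (median 0.34). Without the 5 libraries in doubt 7 of 10 members lay above 0, with a median of 0.29.

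Averaged over the diets of the dams, the 15 libraries labelled female were set against the 16 labelled male. No member passed an adjusted p of 0.05 in edgeR, where the background was 0.0267% of all genes. This contrast uses the same libraries as both diet contrasts. In it 10 of 10 members lay above 0, against a background of 50.1% of genes, with a median log2 difference of 0.29. The members varied together across the libraries, so such counts of directions, here and in the diet contrasts, are not counts of separate events. Olfactory bulb genes lay above 0 in 10 of 12 cases (median 0.52, with 6 at an unadjusted p under 0.05), oligodendrocyte genes below 0 in 9 of 10 (median -0.14) and blood cell genes below 0 in 5 of 5 (median -0.56), and their part in the members' values was not tested. Egr2 had the largest value, 1.51 ± 0.51 (SE; 95% interval 0.46 to 2.55; raw p 0.00605, adjusted p 0.952 in edgeR). Its mean was 0.639 CPM in libraries labelled female and 0.227 CPM in those labelled male, and 13 of 15 labelled female lay above the male mean. These means include the 2 libraries that went against their sex label, control female 7 at 0.675 CPM and control male 7 at 0.503 CPM. Without those 2 libraries 10 of 10 members lay above 0, with a median of 0.32. Egr2 was the only member at an unadjusted p under 0.05, against a background of 4.13% of genes. Without obesogenic male 1, 5 of 10 members passed that unadjusted threshold, against a background of 4.41% of genes in that fit, and 0 the adjusted one. Fos was then at 0.89 (95% interval 0.37 to 1.40) and Egr1 at 0.71 (95% interval 0.29 to 1.14). Without control female 5 the values were smaller, 0.47 for Fos, 0.27 for Egr1 and 0.02 for Arc, with 10 of 10 above 0 and a median of 0.15. Without the 5 libraries in doubt 9 of 10 lay above 0, Npas4 being at -0.10.

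The members varied together from library to library within the groups. Over 31 libraries, on log2 CPM with each group's mean removed, Pearson's r was above 0 in 45 of 45 pairs and had a median of 0.524 (range 0.068 to 0.889). A correlation of 0.5 or more was reached by 24 of the 45 pairs, 53.3%, against a background of 6.61% of all gene pairs, whose median was 0.0025. With p-values from 100000 permutations within groups, adjusted over the 45 pairs, 34 pairs passed by Pearson's r and 17 by Spearman's rho, whose median was 0.400. The share of all gene pairs that would pass such a test was not computed, so these counts of passing pairs have no background. All pairs share the same libraries, and the members were selected as genes known to respond together.

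Egr1 had the highest mean r to the other members, 0.698. Its closest partner was Nr4a1 (r = 0.889, rho = 0.789, permutation p = 1e-05 for each, the smallest that the permutations allow, adjusted p = 0.000225 and 0.00015). Fos followed Egr1 at r = 0.818 and rho = 0.802 (permutation p = 3e-05 and 1e-05, adjusted 0.000337 and 0.00015). Dusp1 followed Egr1 at r = 0.792 and rho = 0.783, and Junb followed Fos at r = 0.776 and rho = 0.650. Ier2 had the lowest mean r, 0.269, and its pair with Npas4 was the lowest at r = 0.068 (rho = -0.021, permutation p = 0.739 and 0.917). Fos and Arc, the most used activity markers of the list, were only moderately related, at r = 0.455 and rho = 0.417 (permutation p = 0.00435 and 0.0221, adjusted 0.00851 and 0.0553).

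The size of the covariation depended on which libraries were included. The median r was 0.560 and 30 of 45 pairs passed without the 5 libraries in doubt. When the 2 libraries farthest from the median on the first gene of a pair were left out, the median r over the 45 pairs was 0.369 (range -0.098 to 0.809), and 12 pairs stayed at 0.5 or more. Those libraries differ from pair to pair, and taking out the extremes of one gene of a pair lowers a positive r by construction. Egr1 and Nr4a1 then had r = 0.809, Egr1 and Dusp1 0.779 and Egr1 and Fos 0.632, whereas Arc and Npas4 had 0.092 and Arc and Nr4a1 0.346. Within single groups the median r was 0.687 in obesogenic females, 0.711 in control females, 0.573 in obesogenic males and 0.206 in control males. Leaving out obesogenic female 5 brought the median to 0.379 within obesogenic females. Leaving out control female 5 brought it to 0.352 within control females, and leaving out obesogenic male 1 brought it to 0.071 within obesogenic males. Within control males it was 0.081 without control male 8 and 0.103 without control male 3. Without the libraries in doubt the median was 0.745 within obesogenic females, 0.429 within control females and 0.298 within control males. By exact permutation, adjusted over 45 pairs in each group of 7 or 8 libraries, 3 pairs passed within obesogenic females, 5 within control females, 1 within obesogenic males and 0 within control males. For these counts too the share over all gene pairs was not computed.

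**Figure D5:**
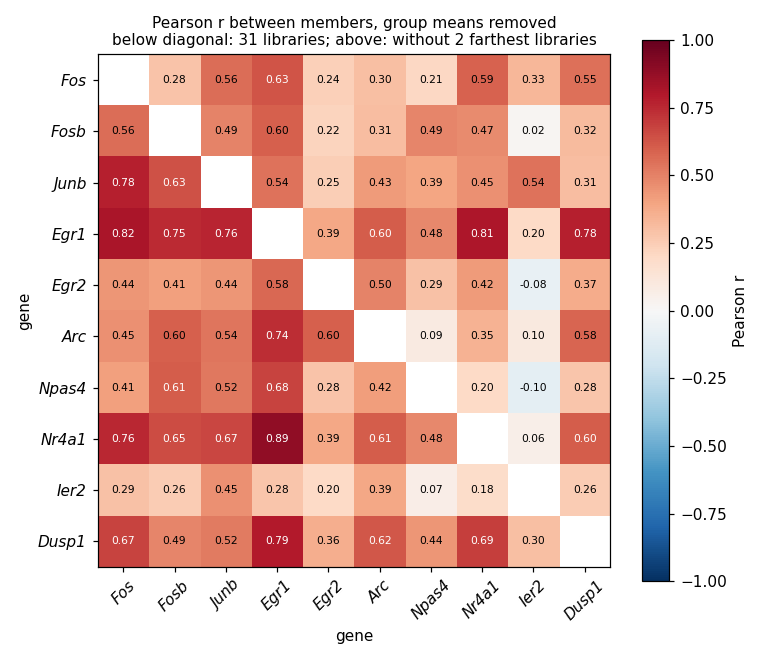
Pearson's r between each pair of members on log2 CPM with group means removed. Squares below the diagonal use 31 libraries and squares above it leave out the 2 libraries farthest from the median on the first gene of the pair. Below the diagonal r runs from 0.068 to 0.889, and above it from -0.098 to 0.809, with the row and column of Egr1 the darkest.

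Among all other tested genes with an established name, those with the highest mean r to the members were Gpr3 (0.569), Fosl2 (0.552), Ptcd1 (0.534), Apold1 (0.530), Sik1 (0.525), Clip2 (0.521), Rasgef1c (0.519) and Btg2 (0.511), over 31 libraries. Fosl2 encodes a further AP-1 subunit, Sik1 a kinase induced by cyclic AMP, Btg2 an antiproliferative early response protein, and Gpr3 a constitutively active receptor. Without the 5 libraries in doubt Btg2 ranked 1, Gpr3 2 and Sik1 4 among the genes outside the set, while Rasgef1c ranked 133.

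Lists of related genes were set beside the members as a description. The 14 tested family relatives of 15 listed, such as Fosl2, Jun, Egr3, Egr4, Nr4a3 and Dusp6, had a median mean r of 0.387 to the members (range -0.232 to 0.552). Among the 200 genes most like the set, of 18733 outside it, were 5 of them. Without the 5 libraries in doubt Fosl2 and Jun ranked 28 and 107. Dusp6, Ier5l and Egr4 fell from ranks 129, 140 and 150 to 722, 329 and 1036. The 28 other primary response genes had a median of 0.164, with Sik1, Btg2 and Nfil3 among those 200. The 19 tested later activity-regulated genes, which encode growth factors and synaptic proteins such as Inhba, Nrn1 and Vgf, had a median of -0.031, with 0 among the 200, and all genes tested had -0.014. Of the olfactory bulb list 2 of 12 genes, and of the general neuron list 1 of 10, were also among the 200. The medians without the 5 libraries in doubt were 0.215 for family relatives, 0.102 for the other primary response genes and 0.079 for the later genes, against -0.0028 for all genes.

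In the diet contrasts of these lists no gene passed an adjusted p of 0.05 in edgeR. In females 2 of 14 family relatives were lower and 0 higher at an unadjusted p under 0.05, where 4.75% of all genes were lower and 3.37% higher. The 2 were Dusp5, a MAP kinase phosphatase, at 1.504 ± 0.732 CPM in obesogenic females (SD, n = 7) and 6.60 ± 14.6 CPM in control females (SD, n = 8), and Egr3 at 2.65 ± 0.8287 CPM in obesogenic and 6.13 ± 8.87 CPM in control females. Both means rest on control female 5, which had 42.8 CPM of Dusp5 and 27.97 CPM of Egr3, against at most 2.06 and 4.36 CPM in the 7 other control females. Of the other primary response genes 2 of 28 were higher and 1 lower at that threshold. They were Zfp36, an RNA-destabilizing protein, at a log2 fold change of 0.51 ± 0.21, Btg2 at 0.37 ± 0.17 and Sertad1 at -0.54 ± 0.22 (SE). Control female 5 had 7.99 CPM of Sertad1, against at most 6.72 CPM in the 7 other control females, and lay within their range for Zfp36 and Btg2. The later genes gave 1 higher and 3 lower of 19: Vgf, a secreted neuropeptide precursor, had a log2 fold change of 0.46 ± 0.18, Inhba one of -1.26 ± 0.44 and Nrn1 one of -0.37 ± 0.14 (SE). For these too control female 5 was extreme, at 60.7 CPM of Vgf, 34.1 CPM of Inhba and 86.6 CPM of Nrn1, each outside the range of the 7 other control females. In males 1 of 14 family relatives was higher and 0 lower at an unadjusted p under 0.05, where 0.907% of all genes were higher and 2.54% lower. It was Nr4a2, an orphan nuclear receptor of the Nr4a1 family, at 16.9 ± 1.94 CPM in obesogenic males and 10.97 ± 4.96 CPM in control males (SD, n = 8 each). Among the 28 other primary response genes in males Plk2 was higher (log2 fold change 0.25 ± 0.12) and Ccn1 lower (-0.47 ± 0.17) at that threshold (SE), and 0 of 19 later genes passed it. Among the 29 upstream regulators, the kinases, calcium channels and transcription factors that act on these promoters, 1 was higher and 1 lower in females and 0 passed in males. The higher one in females was Ep300, a histone acetyltransferase, at 74.0 ± 9.98 CPM in obesogenic and 58.9 ± 10.3 CPM in control females (SD, n = 7 and 8), and the lower one was the transcription factor gene Mef2c at 27.7 ± 4.17 CPM in obesogenic and 77.2 ± 133 CPM in control females, of which control female 5 had 407 CPM.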

How the data were processed

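Hypothalamus RNA was measured in 31 libraries. The deposited counts are whole read pairs per gene that the authors left unscaled. Per the file headers, featureCounts 1.6.2 assigned pairs to genes of Ensembl GRCm38 release 94 by the reverse strand, requiring mapping of both ends at a quality of at least 10. No member shares its strand with an overlapping gene. The exon length of each gene is deposited beside the counts. The submitters' processing notes name build mm10 and the tools FastQC, TopHat2 2.0.13, Subread and edgeR. Symbols were found for 54409 of 54532 gene IDs, and 0 library columns were left unused. Counts of the 2 most similar libraries varied 7.67 times as much as sampling noise alone (by chi-square over genes), so none was taken for a repeat.

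The tests came from edgeR 4.0.16 under R 4.3.3 (filterByExpr, TMM, robust quasi-likelihood, 31 libraries in 1 fit, Benjamini-Hochberg adjustment over 18743 genes, threshold 0.05, 95% intervals). Correlations used log2 CPM with a prior count of 2 (numpy 2.4.6, scipy 1.17.1). Libraries over 3 median absolute deviations below the median correlation were said to stand apart. The procedures were tested on simulated data. Alternatives were DESeq2 1.42.0, limma 3.58.1 voom with quality weights, sva 3.50.0, other scalings and filters, and left-out libraries.

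The members and the 19 other lists were chosen with earlier results of these data known. All members, the 3 genes of smallest p per list and diet contrast (some of them left unprinted) and the 8 genes most like the members were named by rule. Examples of lists (Jun, Egr4, Nr4a3, Dusp6, Nfil3, Dnajb1 and Mrtfa) and the marker genes given for control female 5 were chosen after their values were seen. The lists of other cell types and regions are summarised in the closing section.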

Additional observations from a re-analysis of the deposited data

Results flagged for a closer look

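For 14 of the 40 combinations of a member and a group, the highest library lay further from the next than Dixon's criterion allows at 95%. For normally distributed values chance flags about 1 in 20 such combinations, and CPM values need not be so distributed. The share of all genes flagged in these groups was not computed, so the 14 have no background. The members share their libraries, so the 14 are not separate events. All 14 were high values, and they came from 3 libraries.

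Obesogenic male 1 gave 6 of them: Fos at 39.6 CPM (next library of the group 10.9), Junb at 22.6 CPM (8.49), Egr1 at 65.8 CPM (19.5), Egr2 at 0.936 CPM (0.409), Arc at 21.96 CPM (15.6) and Nr4a1 at 31.9 CPM (15.2). Obesogenic female 5 gave 3: Fosb at 7.64 CPM (next 2.84), Junb at 21.5 CPM (9.67) and Egr1 at 74.3 CPM (37.8). Control female 5, a library that stood apart from the rest, gave 5. They were Fosb at 7.40 CPM (next 4.16), Egr1 at 62.4 CPM (25.7), Egr2 at 2.35 CPM (0.675), Arc at 56.2 CPM (14.1) and Npas4 at 8.91 CPM (4.20). In control males 0 members were flagged. No difference between the diet contrasts of the sexes passed its test.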

How the results depend on the processing

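No paired analysis was possible because the labels give the libraries no replicate numbers, animals or litters in common. No member passed an adjusted p of 0.05 in any contrast under any alternative run. Called genes of all 18743 came to 6 for diet in females, 1 for diet in males, 6 for the difference of the diet contrasts and 15 for females minus males with DESeq2, against 0, 0, 0 and 5 with edgeR. For females minus males the count was 2 with limma voom, 1 without a filter, 8 with 2 surrogate variables, 13 without the 2 libraries against their sex label, 19 without the 5 libraries in doubt, 1 without both libraries whose titles carry 2 numbers (an alternative chosen after seeing the data), and 2 to 14 when each library was left out in turn.

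Directions of several members turned, and except for left-out libraries the cause was not tested. For diet in females, limma voom gave log2 fold changes of 0.25 for Egr2, 0.35 for Arc, 0.027 for Npas4 and 0.034 for Ier2, 2 surrogate variables gave 0.022 for Egr2, 0.45 for Arc and 0.078 for Npas4, and leaving out the 5 libraries in doubt gave 0.89 for Egr2, 0.53 for Arc and 0.20 for Npas4. With each library left out in turn, the value in females ran from -0.27 to 0.51 for Fosb, -0.54 to 0.53 for Egr2, -0.29 to 0.46 for Arc, -0.23 to 0.27 for Npas4 and -0.19 to 0.39 for Nr4a1. The lowest came without obesogenic female 5, except for Egr2 (without obesogenic female 4), and the highest without control female 5.

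For diet in males, limma voom gave -0.28 for Fosb, -0.053 for Egr1 and -0.13 for Egr2, and surrogate variables gave -0.0031 for Fosb. Without both libraries whose titles carry 2 numbers, Fosb was at -0.16, Junb at -0.16, Egr1 at -0.20, Nr4a1 at -0.11 and Dusp1 at -0.052. Leaving out each library gave -0.17 to 0.26 for Fosb, -0.17 to 0.31 for Junb, -0.20 to 0.37 for Egr1, -0.12 to 0.31 for Nr4a1, -0.0075 to 0.19 for Ier2 and -0.054 to 0.14 for Dusp1. The lowest came without obesogenic male 1, except for Ier2 (without obesogenic male 8).

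For the difference of the diet contrasts, limma voom gave 0.67 for Fosb, 0.38 for Egr2, 0.14 for Arc and 0.10 for Nr4a1, and surrogate variables 0.40 for Fosb, 0.24 for Arc and 0.19 for Nr4a1. Without the 5 libraries in doubt Fosb was at 0.28 and Arc at 0.30. Fosb and Nr4a1 were at 0.32 and 0.22 without the libraries whose titles carry 2 numbers, and Npas4 at -0.0032 without those against their sex label. Leaving out each library gave -0.086 to 1.22 for Fos, -0.41 to 0.38 for Fosb, -0.14 to 0.55 for Junb, -0.22 to 0.62 for Egr1, -0.55 to 0.21 for Arc, -0.11 to 0.40 for Npas4 and -0.40 to 0.20 for Nr4a1. For females minus males, Arc was at -0.0056 with surrogate variables, and Npas4 at -0.060 with limma voom and -0.10 without the 5 libraries in doubt.

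Of the 45 member pairs, 34 passed by Pearson's r and 17 by Spearman's rho, and 3 passed within obesogenic females, 5 within control females, 1 within obesogenic males and 0 within control males, whose median r was 0.21. The share of all gene pairs passing was not computed. Leaving out each library gave 22 to 35 pairs and a median r of 0.43 to 0.56, both lowest without obesogenic male 1. Npas4 and Ier2 had a rho of -0.021, and Egr2 and Ier2 an r of -0.089 without the 5 libraries in doubt. Depth limits the low members most: the lowest library had 0 read pairs of Egr2 (highest 87), 23 of Fosb, 26 of Npas4 and 40 of Ier2. A filter of 1 CPM in 7 libraries removed Egr2.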

Other observations

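Across the 31 libraries, with group means removed, markers of other brain cells ran against the members. The median over a list of each gene's mean r to the 10 members was -0.261 for astrocyte genes, -0.232 for oligodendrocyte genes, -0.307 for mural cell genes, -0.131 for microglial genes and -0.115 for endothelial genes. It was 0.291 for general neuron genes and 0.331 for olfactory bulb genes, against -0.355 for hypothalamic neuron genes. Without the 5 libraries in doubt, control female 5 among them, the last 3 were 0.102, 0.081 and 0.026, astrocytes were at -0.201, mural cells at -0.274, microglia at -0.215, oligodendrocytes at -0.087 and endothelial genes at -0.096. Choroid plexus genes had -0.224 (-0.062 without those libraries), and the thalamus, telencephalon and blood lists had 0.090, 0.032 and -0.021.

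Among lists for other states of the tissue, heat shock genes had a median mean r of 0.119, clock genes of 0.035 and glucocorticoid-induced genes of -0.077, and without the 5 libraries in doubt they had 0.191, -0.071 and -0.126. The heat shock gene Dnajb1, a cochaperone, moved to a mean r of 0.483 without those libraries. Upstream regulators of the members had 0.214 (0.134 without those libraries), with Mrtfa, a coactivator of SRF, highest at 0.390.

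In the diet contrasts 0 genes of these lists passed an adjusted p of 0.05 in edgeR. In females 9 of 12 olfactory bulb genes were lower at an unadjusted p under 0.05, against 4.75% of all genes, with Cdhr1 at 4.82 ± 1.45 CPM in obesogenic females (SD, n = 7) and 96.4 ± 260 CPM in control females (SD, n = 8), whose value in control female 5 was 740 CPM. In males 3 of 10 endothelial genes were higher at that threshold, against 0.907% of all genes. Among them was Slco1a4 at 52.2 ± 14.7 CPM in obesogenic males and 37.7 ± 9.39 CPM in control males (SD, n = 8 each). Of the 10 endothelial genes 7 lay above 0 and 3 below in males (median 0.09), and in females 1 was higher and 1 lower at that threshold. Also in males 1 of 14 telencephalon genes was higher. Lower were 2 of 10 heat shock genes, and 1 each of 10 astrocyte, 10 microglial and 15 glucocorticoid-induced genes, against 2.54% of all genes.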
